A study of Mus musculus with 72 samples.

Results

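The CpG island at the promoter of Rgcc was examined site by site in heart, lung and muscle. Its members were the CpG sites of the Rgcc amplicons that had at least 10 reads in each of the 6 Rgcc island libraries, which left 67 of the 299 sites that met the same rule over the 6 islands of the series. In mm9 coordinates they lay on chromosome 14 between positions 79700866 and 79701694, a span of 829 bases, and neighbouring sites were 2 to 54 bases apart (median 9). The least covered of the 67 sites had 81 reads in its shallowest library, and the best covered position left out within the span had 12 reads in 1 library and fewer than 10 in another.

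Rgcc encodes regulator of cell cycle, a protein also known as RGC-32 that binds cyclin-dependent kinase and has been studied in cell growth, endothelium and fibrosis. A CpG island is a stretch rich in CpG dinucleotides, and islands at promoters are usually free of DNA methylation in normal tissue, while dense methylation of an island is known to accompany a silent promoter. Bisulfite converts unmethylated cytosine to uracil, which is read as thymine after amplification, so the share of reads that keep a cytosine gives the methylation level of a site.

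The Rgcc -/- mice were homozygous for a Knockout Mouse Project tm1a allele, which places a LacZ reporter under the gene's own promoter and adds a neo selection cassette. They were set against wild-type mice. Both genotypes were on the C57BL/6N background and 7 weeks old, and each had 1 island library from heart, 1 from lung and 1 from muscle. The sources used here do not say whether the tissues of a genotype came from the same animal or from a pool, so tissues served as replicates and an SD below is the spread between 3 tissues. The labels of the 3 wild-type libraries name the mapping accession of another targeted gene, Rab32, but the positions in their files are those of the Rgcc knockouts, so the titles were used for grouping. No allele or strain marker is in the files, so the genotype itself was not checked.

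The label of promoter island was checked against the RefSeq promoter sequence of Rgcc. All 26 CpGs in the 300 bases around the annotated transcription start fell on file positions at a single offset, and all 26 sites in that window were CpGs of the sequence, while the next best offset matched 7. This put the transcription start at position 79701441 of the files. The gene runs towards lower coordinates, so 43 sites lay downstream of the start, 1 spanned the start and 23 lay upstream. Distances below are counted in bases from the start. The 250 bases before it are shown because they hold 22 of the sites and the sequence elements around them (RefSeq, GRCm38.p6, chr14:79301636-79301885, minus strand, CpGs in capitals).
Rgcc promoter: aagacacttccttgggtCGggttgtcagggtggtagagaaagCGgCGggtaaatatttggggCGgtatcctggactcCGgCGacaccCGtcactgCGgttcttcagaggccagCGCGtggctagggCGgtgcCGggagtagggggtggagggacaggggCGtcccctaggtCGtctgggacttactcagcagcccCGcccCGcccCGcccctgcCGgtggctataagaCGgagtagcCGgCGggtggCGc

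The letters TATAA, the core of a TATA element, occurred once on the 2 strands of these 250 bases, 29 to 25 bases before the start. The letters GGGCGG, known as a GC box and bound by Sp1 family factors, occurred 5 times. They lay at 191 to 186 and 127 to 122 bases before the start on the gene's strand, and at 56 to 51, 51 to 46 and 46 to 41 on the opposite strand, where neighbouring matches share a base. Of 32851 RefSeq mouse promoters, 22.8% held TATAA and 32.7% held GGGCGG in the same window. A match is a description of the letters and not a measured binding site.

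The knockout libraries held 401098, 308838 and 81248 methylation calls at the 67 sites in heart, lung and muscle. The wild-type libraries held 412596, 438198 and 329487 in the same order. Coverage changed along the island in steps that all libraries shared, as the plot of coverage by site shows. Sites were grouped into 7 stretches, with a break wherever the libraries' shares of the coverage shifted by at least 2.0%, a grouping made after the values were seen. From the most downstream stretch inwards these held 5, 13, 1, 8, 8, 14 and 18 sites. The stretch from 44 to 253 bases upstream had only 81 to 972 reads per site, while every site from 35 bases upstream onwards had 899 to 15533. Reads were PCR products without molecular identifiers, so the intervals given below cover counting error only.

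**Figure D1:**
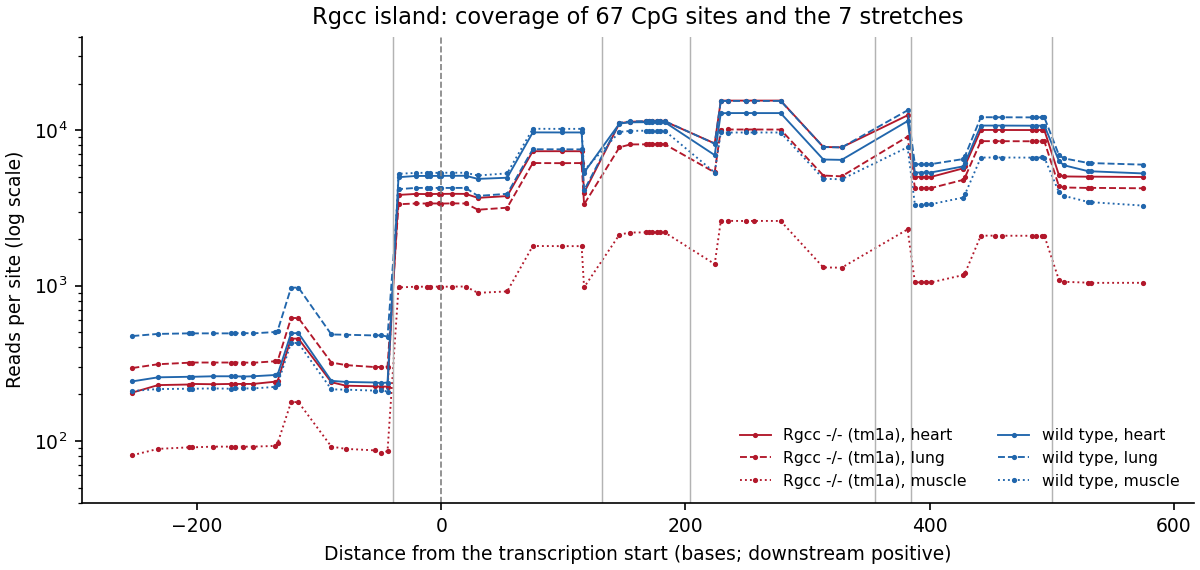
Reads per CpG site (log scale) against distance from the transcription start in bases, downstream positive, for the 3 Rgcc -/- and 3 wild-type island libraries. Grey lines mark the breaks between 7 stretches, and the 18 sites farthest upstream had 81 to 972 reads in each library.

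Most of the island was nearly unmethylated in wild type and carried low methylation in Rgcc -/- tissues. Over the 67 sites the median level was 2.82% in heart, 1.92% in lung and 2.25% in muscle of Rgcc -/- mice, against 0.846%, 0.543% and 0.903% in the same tissues of wild type. The lowest knockout median was above the highest wild-type median. Mean levels are raised by 7 sites whose median over wild-type tissues was at least 5%, called elevated sites below. At the other 60 sites the mean was 3.78% in heart, 2.62% in lung and 3.61% in muscle of Rgcc -/- mice, against 1.22%, 0.779% and 1.18% in wild type. At the elevated sites the mean was 56.0%, 53.2% and 52.5% in heart, lung and muscle of Rgcc -/- mice, against 54.3%, 55.4% and 52.8% in wild type, so the genotypes overlapped there.

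The rule for elevated sites looks at wild type alone and can therefore favour a higher knockout. Leaving out instead the 13 sites at which the genotypes' medians averaged at least 5% kept 54 sites. Their mean was 2.87% in heart, 2.11% in lung and 2.61% in muscle of Rgcc -/- mice, against 0.955%, 0.773% and 1.08% in wild type. Over all 67 sites the knockout minus wild-type difference averaged 2.01 ± 0.543 points (SD, n = 3 tissues), with heart at 2.47, muscle at 2.15 and lung at 1.41. The 2-sided exact sign-flip permutation test over tissues gave p = 0.25, the lowest value 3 pairs allow.

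Counts over all 67 sites, with none left out for its level, gave the same order of genotypes. A level above 2% was found at 42, 33 and 37 sites in heart, lung and muscle of Rgcc -/- mice, against 16, 9 and 15 in wild type. The knockout was the higher genotype at 59, 57 and 52 of the 67 sites in these tissues, and at 41 in all 3. All knockout libraries lay above all wild-type libraries at 35 of the 67 sites (52.2%), and all lay below at 1, an elevated site.

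**Figure D2:**
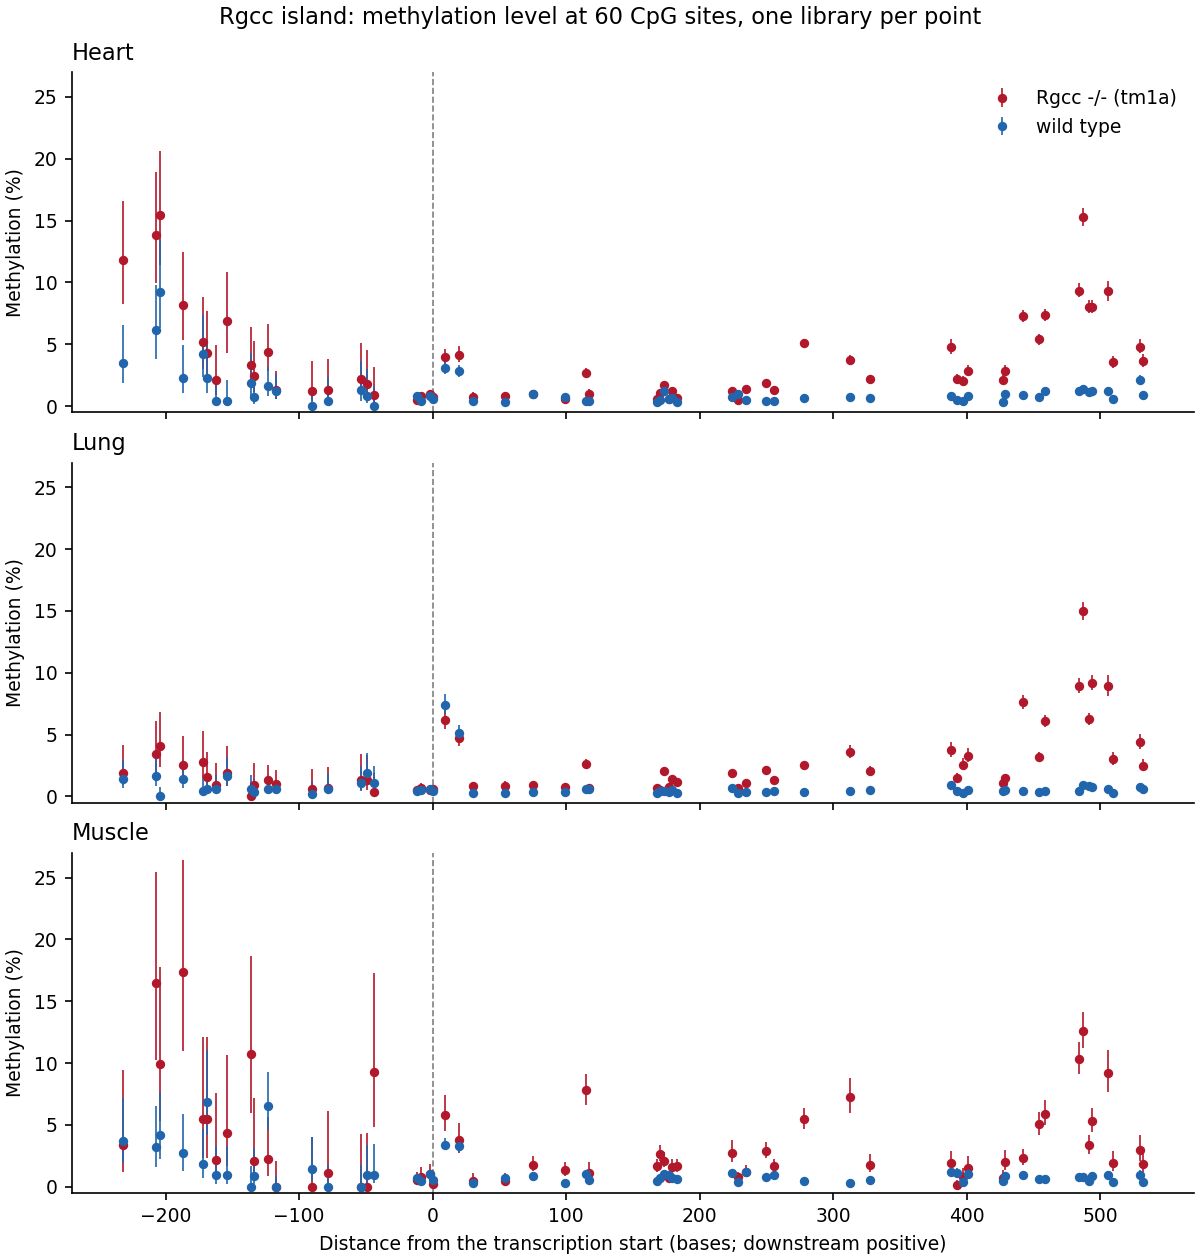
Methylation level in percent at the 60 sites that were not elevated, against distance from the transcription start in bases, in heart, lung and muscle. Points are single libraries of Rgcc -/- (red) and wild type (blue) with 95% Wilson intervals. The site 487 bases downstream is at 12.6% to 15.3% in the knockouts, and the intervals are widest upstream.

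Genotypes were compared at each site with edgeR's quasi-likelihood test on methylated and unmethylated counts, with tissue as a term and Benjamini-Hochberg adjustment over the 67 sites. Each tissue had 1 library per genotype, so the edgeR p-values rest on the spread between tissues and do not measure variation between animals. At an adjusted p under 0.05, 27 sites were higher in the Rgcc -/- libraries and 0 were lower, which is 40.3% of the island. At an unadjusted p under 0.05 there were 34 sites. The limma test on logit methylation also called 27 sites, all of them higher, and shared 25 with edgeR. The 27 sites were higher in all 3 tissues, and at 26 of them the genotypes did not overlap. The test that called them favours both traits, so these counts add no support. Over all 67 sites, 41 were higher in all 3 tissues and 35 had every knockout above every wild-type library. Their mean differences ran from 0.608 to 13.2 points with a median of 2.51, beside a median of 1.08 over all 67 sites. The ratio of the genotype means at these sites ran from 2.31 to 13.7, with a median of 4.56. These ratios are for sites called as higher. They rest on wild-type means of 0.332% to 2.16%, and incomplete conversion was not tested. None of the 7 elevated sites was among them, and 20 of the 27 passed the test without each tissue in turn. The fits of 2 tissues could give far smaller p-values than the fit of 3, so passing them adds little. At 487 bases downstream the edgeR adjusted p was 2.75e-18 without lung, against 0.000697 with all tissues. Each site was also thinned once at random to at most 100 reads per library, so the spread over draws was not measured. With these counts, edgeR without an abundance trend called 10 of the 27, of which 8 lay in the 2 most downstream stretches.

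The sites that passed the test lay mostly in the transcribed part. Of the 43 sites downstream of the start, edgeR called 26 (60.5%) higher in Rgcc -/- mice, against 1 of 24 (4.17%) at or before the start. In the stretch from 44 to 253 bases upstream, limma called 3 of 18 sites and edgeR 1. Of the 27 sites more than 200 bases downstream, 22 passed. Whether the 2 sides differed was not tested, and the upstream side had the lowest coverage. Among the 40 sites at or downstream of the start that were not elevated, Spearman's rho between the mean difference and the distance from the start was 0.777, and 0.26 for the wild-type level. These are descriptions over neighbouring sites that share libraries. With the span cut at its middle coordinate, the difference was 2.80 ± 0.314 points over the 33 lower-coordinate sites and 1.24 ± 1.11 over the 34 others (SD, n = 3 tissues). The excess of 1.56 ± 1.23 points had an exact sign-flip permutation p of 0.25, the lowest possible. It was 0.508 ± 0.963 points with the median over sites, at an exact permutation p of 0.5. When reads were pooled it was 1.28 ± 2.98 points, at an exact permutation p of 0.75.

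**Figure D3:**
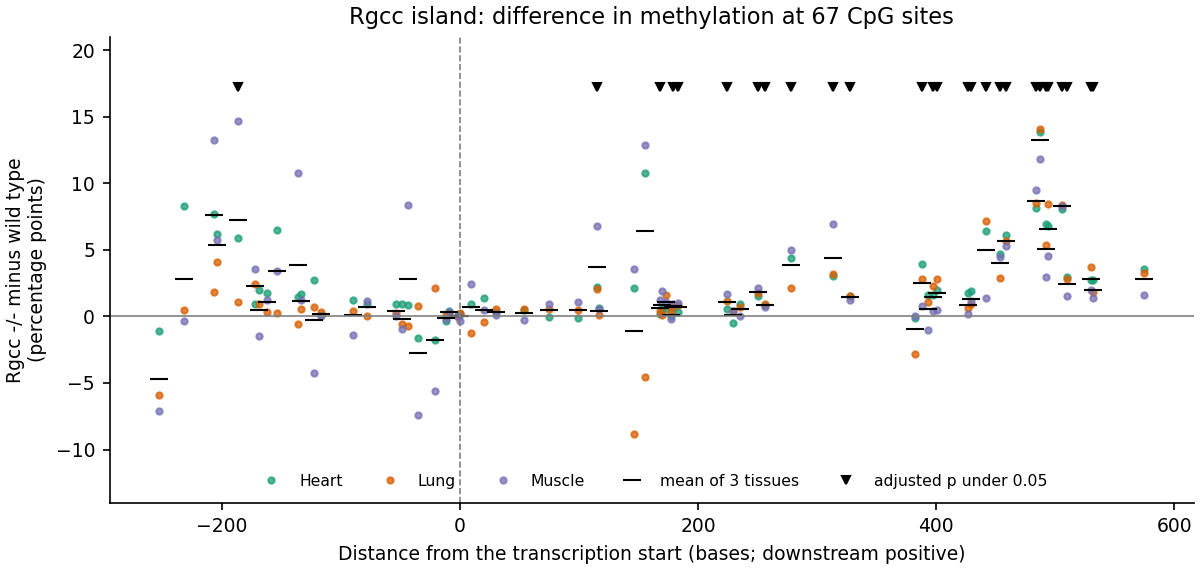
Rgcc -/- minus wild-type methylation in percentage points at 67 sites, against distance from the transcription start in bases, with 1 coloured point per tissue and a black dash for the mean of 3 tissues. Triangles mark the 27 sites with an edgeR adjusted p under 0.05, of which 26 lie downstream of the start.

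Among the downstream sites that were not elevated, the highest knockout levels were found between 442 and 506 bases from the start. The site at 487 bases, position 79700954, had 15.3%, 15.0% and 12.6% in heart, lung and muscle of Rgcc -/- mice, against 1.41%, 0.925% and 0.794% in wild type. Its difference of 13.2 ± 1.25 points (SD, n = 3 tissues) was the largest on the island, and the edgeR adjusted p was 0.000697. Coverage at this site was at least 2095 reads, and the widest Wilson interval, in knockout muscle, ran from 11.2% to 14.1%.

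The neighbouring sites were lower but followed the same order of genotypes. At 506 bases, position 79700935, the knockouts had 9.28%, 8.96% and 9.21% in heart, lung and muscle, against 1.20%, 0.564% and 0.903% in wild type, with a difference of 8.26 ± 0.164 points (edgeR adjusted p = 0.000697). The 3 knockout tissues were closer together here than at the other named sites of this group. At 484 bases, position 79700957, they had 9.34%, 8.96% and 10.3% in heart, lung and muscle, against 1.23%, 0.454% and 0.810% in wild type, a difference of 8.70 ± 0.722 points (edgeR adjusted p = 0.000906).

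Other named sites of the same group had smaller differences and more spread between tissues. At 494 bases, position 79700947, Rgcc -/- heart, lung and muscle had 8.04%, 9.21% and 5.34%, against 1.26%, 0.759% and 0.839% in wild type (difference 6.58 ± 1.98 points). At 492 bases, position 79700949, the knockouts had 8.04%, 6.23% and 3.34%, against 1.11%, 0.874% and 0.419% in wild type (difference 5.07 ± 2.02 points). At 459 bases, position 79700982, they had 7.36%, 6.09% and 5.92%, against 1.21%, 0.412% and 0.659% in wild type (difference 5.69 ± 0.445 points). The edgeR adjusted p was between 0.000697 and 0.000972 at these 3 sites, and the lowest knockout tissue was muscle at each of them.

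The size of the difference varied between the stretches of the transcribed part. In the stretch from 575 to 506 bases, 4 of 5 sites passed the edgeR test and the other was an elevated site. In the stretch from 494 to 388 bases, 12 of 13 passed, with differences of 0.871 to 13.2 points. Closer to the start the differences were smaller. In the stretch from 328 to 224 bases, 6 of 8 sites passed, with differences of 0.836 to 4.38 points, and in that from 183 to 146 bases 3 of 8 passed, with 0.608 to 0.797 points. Without elevated sites, the mean difference of these 4 stretches was 3.88 ± 0.485, 4.36 ± 1.0, 1.76 ± 0.441 and 0.695 ± 0.290 points (SD, n = 3 tissues). Their wild-type means stayed between 0.371% and 1.19% in every tissue. The stretch of 1 site at 382 bases was an elevated site.

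Around the start itself both genotypes were mostly low, apart from the elevated sites at 21 and 35 bases upstream. The stretch from 117 bases downstream to 35 upstream had a mean difference of 0.588 ± 0.373 points without its elevated sites, and 1 of its 14 sites passed the test. That site lay 115 bases downstream, at position 79701326, and had 2.67%, 2.62% and 7.80% in heart, lung and muscle of Rgcc -/- mice, against 0.444%, 0.571% and 1.02% in wild type (difference 3.68 ± 2.68 points, edgeR adjusted p = 0.000972). Knockout muscle stood above the other 2 knockout tissues there, with a Wilson interval of 6.64% to 9.13%. Without muscle the difference was 2.14 points (edgeR adjusted p = 0.00341). With reads thinned once at random to at most 100, the site did not pass (edgeR adjusted p = 0.659). The site that spans the start had 0.770%, 0.622% and 0.203% in heart, lung and muscle of Rgcc -/- mice, against 0.570%, 0.399% and 0.544% in wild type. The 3 sites at 2, 9 and 12 bases upstream had at most 1.01% in a knockout library and at most 0.996% in a wild-type library. Methylation was higher again at 9 bases downstream, where the knockouts had 3.97%, 6.17% and 5.78% and wild type had 3.06%, 7.42% and 3.38% in heart, lung and muscle. The genotypes overlapped at that site, and lung was the highest tissue in both.

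Upstream of the start, the mean knockout levels were unlike in the 3 tissues, as a description of single libraries at low coverage. In the thinly covered stretch the mean without its elevated site was 5.10% in heart, 1.56% in lung and 5.29% in muscle of Rgcc -/- mice, against 2.15%, 0.868% and 2.06% in wild type. Lung was the lowest tissue in both genotypes. The 8 sites from 44 to 134 bases upstream had means of 1.96%, 0.932% and 1.84% in heart, lung and muscle of Rgcc -/- mice, against 0.763%, 0.805% and 1.33% in wild type. The 9 sites from 136 to 232 bases upstream had 7.90%, 2.13% and 8.36%, against 3.38%, 0.924% and 2.71% in wild type. So the higher knockout means lay at the 9 farther sites, in heart and muscle, and the wild-type means of these tissues were also higher there.

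The site at 187 bases upstream, position 79701628, was the only upstream site to pass the edgeR test. In limma it was among 3 called sites of this stretch. It lies inside the GGGCGG match at 191 to 186 bases. Rgcc -/- heart, lung and muscle had 8.19%, 2.50% and 17.4%, against 2.30%, 1.42% and 2.75% in wild type (difference 7.20 ± 6.87 points, edgeR adjusted p = 0.0495). The knockout muscle value rested on 92 reads, with a Wilson interval of 11.0% to 26.4%, and the lung values of both genotypes lay close together. The call was lost when any single tissue was left out, with an edgeR adjusted p of 0.135 without heart, 0.071 without lung and 0.248 without muscle, and the difference was 3.49 points without muscle.

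Other upstream sites did not pass the edgeR test. The sites listed here do not stand for the whole stretch from 44 to 253 bases upstream. Without its elevated site, the knockout was higher in all 3 tissues at 2 of the 8 sites from 44 to 134 bases. From 136 to 232 bases this held at 6 of 9. At 4 sites of the stretch, which are not listed, every knockout library lay above every wild-type library. Of the listed sites, those at 207 and 204 bases were higher in the knockout in each tissue, while the rest were mixed. At 207 bases, position 79701648, the knockouts had 13.9%, 3.45% and 16.5% in heart, lung and muscle, against 6.18%, 1.62% and 3.23% in wild type (difference 7.59 ± 5.72 points, edgeR adjusted p = 0.0528, limma adjusted p = 0.0392). Without muscle its difference was 4.75 points (edgeR adjusted p = 0.265). At 204 bases, position 79701645, they had 15.5%, 4.06% and 9.89% in heart, lung and muscle, against 9.27%, 0% and 4.15% in wild type (difference 5.33 ± 1.12 points, edgeR adjusted p = 0.157). Wild-type lung had 0 methylated of 493 reads at that site, which allows a level of up to 0.609%. At 169 bases, position 79701610, they had 4.29%, 1.56% and 5.43%, against 2.30%, 0.607% and 6.88% in wild type, so the genotypes overlapped. The sites at 54, 49 and 44 bases, each inside 1 of the 3 adjoining GGGCGG matches, were at or below 2.22% in every library except knockout muscle at 44 bases, with 8 methylated of 86 reads (9.30%, Wilson interval 4.79% to 17.3%). The site at 123 bases, inside the remaining GGGCGG match, had 4.39%, 1.29% and 2.25% in heart, lung and muscle of Rgcc -/- mice, against 1.62%, 0.619% and 6.51% in wild type, so the knockout was lower in muscle and the genotypes overlapped (difference -0.27 ± 3.61 points, edgeR adjusted p = 0.695).

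The 7 elevated sites did not pass the test in either direction. The site 21 bases upstream, position 79701462, was nearly fully methylated, with 93.7% in heart, 90.8% in lung and 90.7% in muscle of Rgcc -/- mice, against 95.4%, 88.6% and 96.3% in wild type. The next site, 35 bases upstream at position 79701476, had 51.7%, 51.9% and 48.8% in the knockouts, against 53.3%, 51.1% and 56.2% in wild type. These 2 sites lie on either side of the TATAA match, and the sites next to them, 12 and 44 bases upstream, were near 1% or below in wild type. The sites 155 and 146 bases downstream, positions 79701286 and 79701295, varied most between wild-type tissues. At 155 bases the knockouts had 68.2%, 62.6% and 61.6% in heart, lung and muscle and wild type had 57.4%, 67.2% and 48.8%. At 146 bases they had 38.3%, 33.7% and 33.9%, against 36.2%, 42.5% and 30.4% in wild type.

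At the outer ends of the island lay the 2 elevated sites at which the genotypes did not overlap, in opposite directions. The most downstream site, at 575 bases and position 79700866, had 53.5%, 53.0% and 52.1% in heart, lung and muscle of Rgcc -/- mice, against 49.9%, 49.7% and 50.4% in wild type. The groups did not overlap, but the edgeR adjusted p was 0.606. The most upstream site, at 253 bases and position 79701694, had 60.5%, 56.9% and 54.3%, against 61.6%, 62.9% and 61.4% in wild type, and was the 1 site of the island where all knockout libraries lay below all wild-type libraries (difference -4.70 ± 3.19 points, edgeR adjusted p = 0.593). The site 382 bases downstream had 26.0%, 23.2% and 26.2% in the knockouts and 26.1%, 26.1% and 26.2% in wild type. All 7 elevated sites were among the first 2 or last 2 sites of a coverage stretch, as were 25 of the 67 sites in all. Whether this position contributes to their level was not tested.

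**Figure D4:**
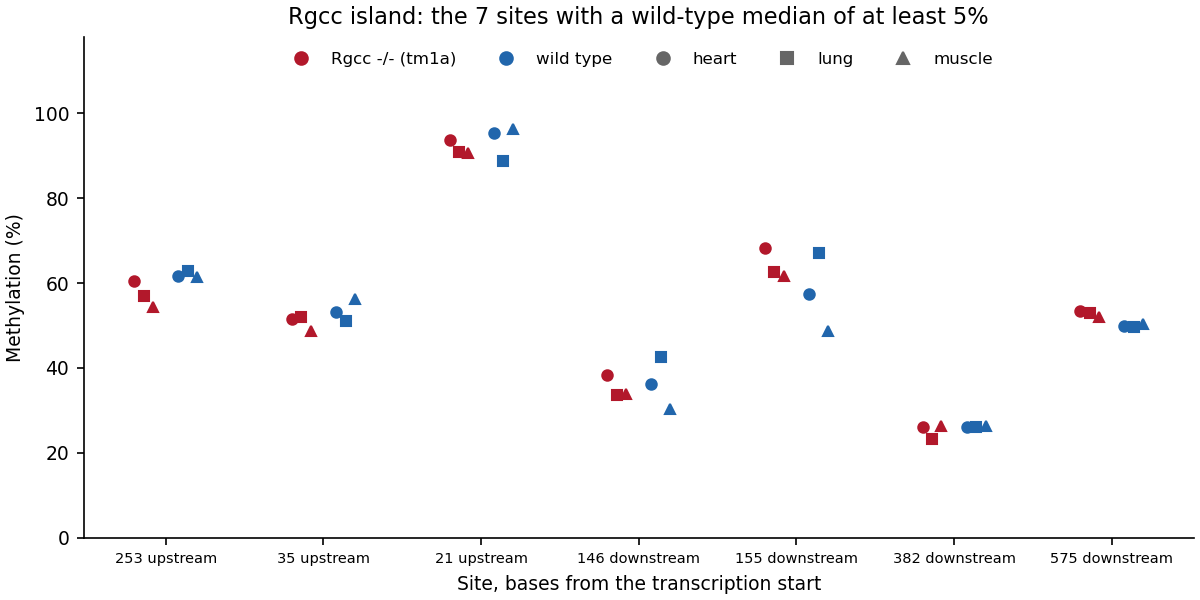
Methylation level in percent at the 7 elevated sites, ordered by distance from the transcription start, with 1 symbol per library (Rgcc -/- in red on the left, wild type in blue on the right, shapes for tissues). Knockout and wild-type symbols overlap in range at every site except those at 253 bases upstream and 575 downstream.

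The 3 tissues were then compared within the island. No site passed the edgeR test for tissue with genotype as a term (0 of 67 sites, 0%), with 6 sites at an unadjusted p under 0.05. The limma test also called 0, with 7 at an unadjusted p under 0.05. Lung against the mean of heart and muscle called 0 sites in edgeR, with 12 at an unadjusted p under 0.05. Each tissue had 1 library in each genotype, so the lack of calls does not show that the tissues were alike. A tissue that responds differently to the allele could not be tested, and the orders below are descriptions. Site differences ranked alike between tissues, with a Spearman's rho over the 60 sites that were not elevated of 0.663 between heart and lung, 0.519 between heart and muscle and 0.451 between lung and muscle. At the 45 of them with at least 100 reads in every library it was 0.835, 0.646 and 0.65 in the same order.

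The order of the knockout means was not the same in each part of the island. In the 2 most downstream stretches, the 17 sites that were not elevated averaged 5.81% in heart, 5.23% in lung and 3.98% in muscle of Rgcc -/- mice, against 0.966%, 0.560% and 0.745% in wild type. Among knockouts, heart was highest at 12 of the 17 and muscle lowest at 13. From 328 bases downstream to the start, and on to 35 upstream, the 26 sites that were not elevated averaged 1.58% in heart, 1.60% in lung and 2.27% in muscle of Rgcc -/- mice, against 0.778%, 0.864% and 0.893% in wild type. Among knockouts, muscle was highest at 17 of these 26. Upstream of them, lung was the lowest knockout tissue at 13 of 17 sites. The knockout muscle library was also the shallowest, with a median of 1050 reads per site beside 5015 in heart and 4250 in lung, and the part of depth in these orders was not tested.

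Per the series design text, LacZ was amplified from the same genomic DNA as the knockout island. At the 158 LacZ sites with at least 10 reads in all 3 libraries, the mean level was 14.8% in heart, 9.96% in lung and 15.7% in muscle. Over all 67 island sites lung also had the lowest Rgcc -/- mean, with 9.23%, 7.90% and 8.72% in heart, lung and muscle. Wild type had the same lowest tissue, with 6.76%, 6.49% and 6.58%. In the 2 most downstream stretches muscle was the lowest knockout tissue instead. A relation between the amplicons was not tested, as 3 tissues are too few.

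The Rgcc difference was set against that of the other 5 islands, with tissues as the units and adjustment over the 5 comparisons. The mean Rgcc difference of 2.01 points exceeded that of Arap by 1.79, of Dstn by 1.76 and of Ninj1 by 1.86 points, each with an adjusted exact permutation p of 0.0298. The 3 Rgcc tissues lay above all 5 tissues of Arap, all 6 of Dstn and all 6 of Ninj1. Lyplal1 had the larger difference, with Rgcc lower by 4.69 points, and Rgcc exceeded Rab32 by 2.27 points. Both had an adjusted exact permutation p of 0.1, and 2 tissues against 3 cannot go below that value. With only the tissues that both lines had, the adjusted exact permutation p was 0.333 against Arap, Dstn and Ninj1, the lowest that 2 tissues against 2 allow. In the other 5 islands together, edgeR called 38 of 232 sites higher in knockouts in each line's own fit (16.4%). These fits had 2 tissues for Lyplal1 and Rab32, 5 for Arap and 6 for Dstn and Ninj1. The mean island differences ran from -0.261 points in Rab32 to 6.69 in Lyplal1. The pooled share is therefore not a like-for-like background for the 40.3% of Rgcc.

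**Figure D5:**
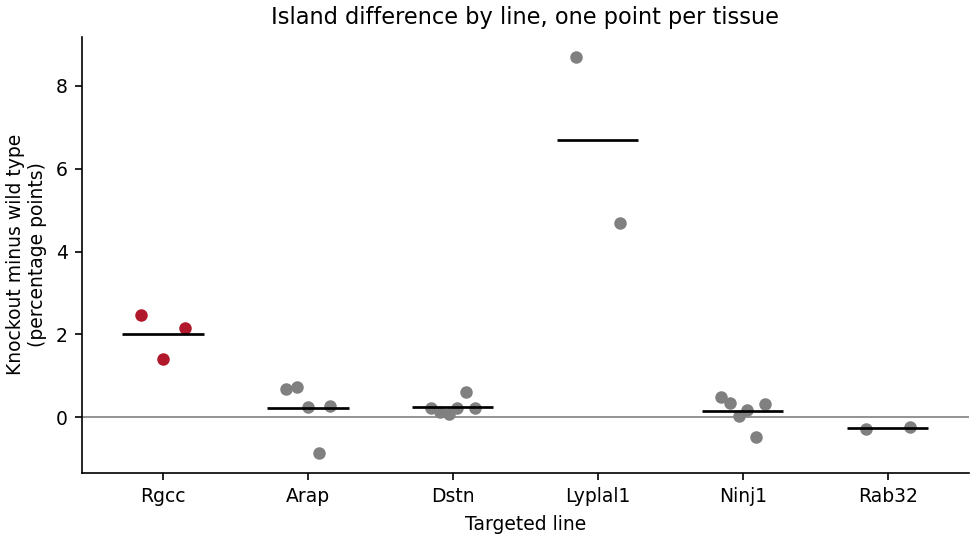
Knockout minus wild-type island methylation in percentage points, 1 point per tissue, with a line at the mean of each targeted line. The Rgcc tissues (red) lie at 1.41 to 2.47 points, above all tissues of Arap, Dstn, Ninj1 and Rab32 and below both of Lyplal1.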

How the data were processed

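Per the labels' protocols, DNA isolated with Tri-reagent from frozen tissue was treated with bisulfite before amplification and sequencing. The submitters' processing notes name Bowtie2, Bismark and the mm9 build, without versions. The files the authors deposited give each CpG site's percent methylation together with its methylated and unmethylated read counts, which are not normalized. The deposited percent equalled the share of the counts in all 51 files checked, to within 5.68e-14 points. Duplicate removal is not given in the sources used here, and unequal amplification of converted strands can shift a level.

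The members and lists were chosen with earlier results of these data known. Sites with at least 10 reads in all 6 Rgcc island libraries were kept, and at most 0.0937% of a library's calls lay at other rows. A library's level was the unweighted mean over sites. Sites were tested by edgeR 4.0.16 (R 4.3.3), with a quasi-likelihood fit of the counts, with limma 3.58.1 on logit methylation (offset 0.5 reads) as an alternative, and single values with exact permutation tests (Python 3.11.15, scipy 1.17.1). Intervals are 95% Wilson intervals. A count of 0 allows 3 counts of the total.

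Named sites were the first and last, the 10 largest and 3 smallest mean differences, the 6 highest wild-type means, the 3 largest ranges over knockout tissues and the 3 smallest p-values for tissue, ranked unadjusted because the adjusted values were tied at 0.351. The sites 0, 2, 9, 12, 44, 49, 54, 123 and 382 bases from the start were named after their values were seen. Alternatives were other read minimums (1 and 100), pooled reads, the median, log2 odds, no tissue term, limma and other adjustment. Thinning once at random to at most 100 reads and leaving out each tissue were also run. The fit without an abundance trend and the leaving out of Rgcc tissues against other lines were chosen after seeing the data.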

Additional observations from a re-analysis of the deposited data

Results flagged for a closer look

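Differences in the effect of genotype between lines were singled out where the exact permutation test over tissues passed. The Rgcc island difference exceeded that of Arap by 1.79 points, that of Dstn by 1.76 points and that of Ninj1 by 1.86 points, each with an adjusted exact permutation p of 0.0298. The Rgcc differences were 2.47, 1.41 and 2.15 points in heart, lung and muscle. Those of Arap ran from -0.863 to 0.721, those of Dstn from 0.0775 to 0.602 and those of Ninj1 from -0.473 to 0.489. Line, animal and amplicon cannot be told apart in these comparisons.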

How the results depend on the processing

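The Rgcc island difference kept its direction under the alternatives run, between 1.57 points for the median over sites and 2.31 without lung, and without the tissue block it was 2.01. Without heart, lung or muscle the site test called 27, 25 or 30 sites, in fits whose p-values could be far smaller than with all tissues. Without the tissue block it called 27. It called 10 sites, all among the 27, with counts thinned once at random to at most 100 reads. Of these, 8 lay in the 2 most downstream stretches. With a difference of at least 10 points also required, the unthinned test called 1 site. With only shared tissues the excess of Rgcc was 1.44 points over Arap, 1.57 over Dstn and 1.93 over Ninj1. Leaving out 1 Rgcc tissue it was 1.56 to 2.09, 1.53 to 2.06 and 1.63 to 2.16 points in the same order, with an adjusted exact permutation p of 0.0794, the lowest possible. Lyplal1 and Rab32 gave no value for shared tissues. The difference changed sign at 3 named sites, none of which passed the test. Leaving out single tissues it ran from -3.37 points without muscle to 2.83 without lung at 146 bases downstream, from -3.69 without lung to 0.204 without muscle at 21 bases upstream, and from -0.245 without heart to 1.47 without muscle at 169 bases upstream. The excess of the lower-coordinate part over the upper was 0.861 points without lung. Coverage of 81 to 972 reads limits the upstream stretch. Non-CpG cytosines are not listed, so incomplete conversion was not tested.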

Other observations

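Positions outside the 67 sites were listed farther downstream in wild type at low read counts. Whether they belong to the island was not checked. Of 38 positions below the read minimum, 31 lay before the first site, from 593 to 916 bases downstream of the start (positions 79700525 to 79700848). All 31 were listed in each wild-type library, with 4 to 24 reads in heart, 4 to 18 in lung and 2 to 20 in muscle, while 1 of them was listed in knockouts, with 1 read each in heart and muscle. In wild type they held 20 methylated of 317 reads in heart, 15 of 234 in lung and 11 of 187 in muscle. Most of the methylated reads lay at the 3 positions at 79700683 to 79700689, with 17 in heart, 14 in lung and 11 in muscle, which gave levels of 27.8% to 38.9%, 30.8% to 38.5% and 25% to 33.3%. Each of these levels rested on only 18 reads in heart, 13 in lung and 12 in muscle. No comparison with Rgcc -/- was possible there. The other 7 positions lay within the span and had at most 12 reads in a library, none of them methylated.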
